A study of Mus musculus with 6 samples.

Results

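Homologous recombination, Fanconi and checkpoint genes were followed in mouse erythroleukaemic cells in which Spi1 was knocked down. They were chosen by symbol alone from the deposited count table, and the rule found 46 genes among 25628 symbols. All 46 passed the filter on low counts that left 14158 genes for testing. They comprise 9 genes of the Fanconi core complex with its E2 enzyme, 2 of the Fanconi ID complex, 5 of the BRCA and PALB2 group, 11 of strand exchange, 5 of end resection, 5 helicases and junction nucleases, 6 checkpoint kinases with their partners and 3 checkpoint mediators. Rad54l2 is counted under strand exchange by its name alone. Both groups of cultures were of the TgSpi1 line numbered 722, leukaemic erythroid blasts from bone marrow that overexpress SPI1 (PU.1), carried a doxycycline-inducible shRNA against Spi1 and grew with erythropoietin. Dox_Treated cultures had doxycycline for 48 h and Dox_Untreated cultures had none, with 3 libraries in each group. All libraries come from 1 line, and no culture with doxycycline but without this shRNA was analysed here, so the drug and the loss of Spi1 cannot be told apart. The labels call the libraries biological replicates without saying whether the cultures were separate, so p-values measure the spread between these libraries.

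Homologous recombination repairs broken DNA by copying the sister chromatid, and so works in S and G2 phase. The MRE11, RAD50 and NBN complex senses a break and starts its resection, BRCA1 with BARD1 and PALB2 brings in BRCA2, and the single-stranded DNA then searches for a homologous copy. The Fanconi pathway clears crosslinks between DNA strands: its core complex, with UBE2T, attaches ubiquitin to FANCI and FANCD2, and inherited loss of it gives marrow failure in people. ATM answers breaks and ATR answers stalled forks, and they act through CHEK2 and CHEK1 on the cell cycle. Many of these genes are transcribed in late G1 and S phase under E2F control.

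RefSeq promoter windows (GRCm38.p6, 250 bases before to 50 after the start) were found for 34 of the 46 genes. No member passed the test without a replicate term, and the risers and fallers named here are those of the fit with a replicate block, whose calls were all lost without the pair of libraries numbered 1 (values below). Of these genes, the windows of Fanci, Bard1 and Chek1, which rose, and of Brip1, which fell, are shown as examples of the E2F and CCAAT letters discussed below. The search took the E2F letters TTCCCGC or TTGGCGC, the CCAAT box CCAAT, the cell cycle element CHR (TTTGAA) and a PU.1 core GAGGAAG, on both strands, and no motif contains another. Capitals mark the E2F letters in the first 3 windows and CCAAT in the fourth.
Fanci, chr7:79392088-79392387, plus strand: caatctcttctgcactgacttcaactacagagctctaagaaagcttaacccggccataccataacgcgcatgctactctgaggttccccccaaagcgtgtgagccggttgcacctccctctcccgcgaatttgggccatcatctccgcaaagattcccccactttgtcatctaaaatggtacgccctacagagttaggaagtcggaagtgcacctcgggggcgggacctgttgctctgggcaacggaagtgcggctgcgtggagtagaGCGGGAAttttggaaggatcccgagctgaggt
Bard1, chr1:71102923-71103222, minus strand: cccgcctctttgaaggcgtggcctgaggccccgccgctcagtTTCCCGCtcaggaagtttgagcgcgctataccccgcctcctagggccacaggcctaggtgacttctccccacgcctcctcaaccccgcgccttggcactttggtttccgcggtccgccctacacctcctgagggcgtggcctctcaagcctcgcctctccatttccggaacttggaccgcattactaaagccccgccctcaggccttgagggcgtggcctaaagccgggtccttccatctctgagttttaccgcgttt
Chek1, chr9:36726609-36726908, minus strand: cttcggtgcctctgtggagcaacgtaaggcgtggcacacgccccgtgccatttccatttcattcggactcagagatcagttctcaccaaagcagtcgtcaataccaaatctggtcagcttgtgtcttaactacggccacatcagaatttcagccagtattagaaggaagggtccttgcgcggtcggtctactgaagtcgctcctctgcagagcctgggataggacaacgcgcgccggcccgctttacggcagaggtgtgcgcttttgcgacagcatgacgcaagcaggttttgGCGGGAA
Brip1, chr11:86201144-86201443, minus strand: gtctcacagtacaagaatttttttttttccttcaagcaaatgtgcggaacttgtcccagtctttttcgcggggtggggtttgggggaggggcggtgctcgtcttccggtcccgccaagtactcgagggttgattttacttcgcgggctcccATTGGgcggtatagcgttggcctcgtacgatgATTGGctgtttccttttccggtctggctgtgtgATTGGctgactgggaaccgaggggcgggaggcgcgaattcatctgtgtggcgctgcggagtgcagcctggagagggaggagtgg
The E2F letters stood in the windows of 17 of 34 members (50%), against 7.79% of all 27025 genes with a window. They were present in all 4 genes with a window that rose (Bard1, Chek1, Fanci and Rad51c) and in 1 of the 3 that fell (Atm). CCAAT was in none of those 4 risers and in all 3 of those fallers (Atm, Brip1 and Palb2), and in 61.8% of the 34 members and 41.1% of all windows. Motifs were chosen with earlier results of these data known, and only 4 of the 7 risers and 3 of the 4 fallers had a window. These genes are too few for a split of motifs by direction to be read. The PU.1 core was in 5 of the 34 members (14.7%), none of them called, and in 15.4% of all windows. CHR was in 3 of the 34 members (8.82%), among them Bard1, and in 20.2% of all windows. The windows of all genes were not limited to the genes tested and were not matched for base composition. Letters in a window do not show that a factor binds there.

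The targeted gene checks the labels. Spi1 stood at 84.8, 80.4 and 62.1 CPM (read counts relative to the library's scaled total) in Dox_Treated replicates 1, 2 and 3, against 414.5, 353 and 329.6 CPM in Dox_Untreated replicates 1, 2 and 3, a log2 fold change of -2.27 (SE 0.17, edgeR adjusted p = 0.0030). Total counts lay between 91277560 and 101276319 in treated libraries and between 78926663 and 98103600 in untreated libraries. All 9 erythroid markers on a list of defining genes passed the filter, and none was called without the block described below. With the block 6 rose and 1 fell (77.8% called, against 25.8% of all genes), with a median log2 fold change of 0.40. Summed levels of the 9 were 2048, 1791 and 2807 CPM in treated and 2302, 1732 and 2274 CPM in untreated libraries 1, 2 and 3. These sums were lower on the treated side in pair 1 and higher in pairs 2 and 3. Gata1 was at a mean of 268 CPM in treated and 274 CPM in untreated libraries. Summed B cell, T and NK cell and stromal markers stayed at or under 1.7 CPM in every library. Summed levels of 7 myeloid markers were 0.5 to 1.9 CPM in treated and 2.8 to 9.0 CPM in untreated libraries, and those of 5 megakaryocyte markers, led by Pf4, 33.3 to 151 CPM in treated and 56.5 to 291 CPM in untreated libraries. With the block 4 of these 5 megakaryocyte markers fell and 1 rose (100% called, against 25.8% of all genes). Their median log2 fold change was -0.90, and none was called without the block. Summed levels of 4 mast cell markers were 8.64 to 50.8 CPM in treated and 3.34 to 62.0 CPM in untreated libraries. The part of these shifts in the results below was not tested. Fewer cells of a type and less RNA per cell cannot be told apart in such bulk samples.

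None of the 46 genes passed edgeR's quasi-likelihood test without a replicate term, where 2.59% of all 14158 genes passed at an adjusted p under 0.05 (0.417% higher and 2.18% lower). The smallest adjusted p of a member was 0.173, 4 members had an unadjusted p under 0.05 (Bard1, Brip1, Fanci and Xrcc2) against 15.4% of all genes, and DESeq2 called 1 member, Fanci, which rose, against 7.15% of all genes (2.06% higher and 5.1% lower). The 3 replicate numbers differed strongly from each other in both groups, and libraries with the same number deviated together, so a second fit that takes the number as a block is given beside it. With that block 7 members rose, among them Fanci, Bard1, Rad51c, Xrcc2, Fancd2 and Chek1, and 4 fell (Brip1, Palb2, Atm and Rad54l2). These 11 are 23.9% of the members, close to the 25.8% of all genes called with the block. By direction, 15.2% of members rose against 10.3% of all genes, and 8.7% fell against 15.6% of all genes. All fold changes were small: with the block they lay between -0.46 and 0.45 on the log2 scale, with a median of 0.08, against -0.0021 for all genes tested.

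Without the pair of libraries numbered 1, none of the 11 genes passed (adjusted p from 0.0845 for Brip1 to 0.271 for Chek1), while their fold changes kept their signs and lay between -0.49 for Atm and 0.47 for Rad51c. Each fit that left out a pair had 4 libraries and 1 residual degree of freedom. Of the 11 genes, 9 kept their call without number 2 and 10 without number 3. The fit without number 1 called no member, against 368 genes higher and 880 lower over all genes. Without number 2, 5 members rose and 9 fell, against 1310 higher and 2119 lower over all genes. The fallers were joined by Brca2, Mdc1, Rad50, Slx4 and Trp53bp1. Without number 3, 7 members rose and 3 fell, against 2071 higher and 2677 lower over all genes. Within pairs of equal number 22 members kept 1 direction (47.8%), against 57.4% of all genes: 15 members were higher in all 3 pairs and 7 lower in all 3, which is 32.6% and 15.2% of the members, against 28% and 29.4% of all genes. The groups did not overlap in CPM for 5 members (10.9%: Bard1, Fanci, Rad51c and Xrcc2 higher, Brip1 lower), against 20.6% of all genes. The 4 higher ones are 8.7% of the members, against 8.88% of all genes higher and 11.7% lower without overlap.

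**Figure D1:**
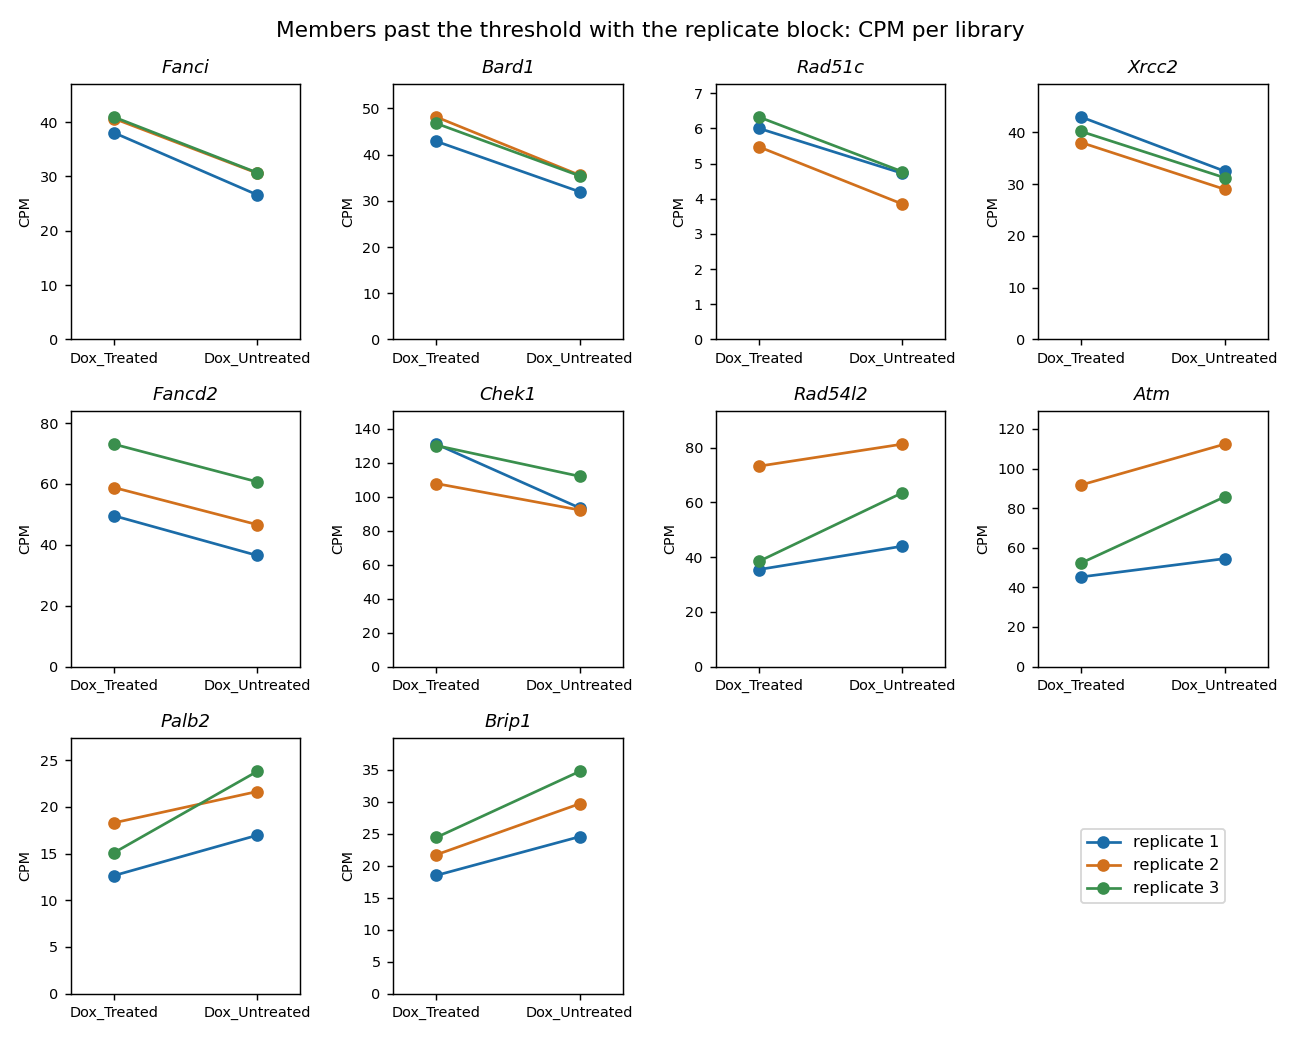
CPM of 10 of the 11 genes that passed with the replicate block, in Dox_Treated libraries (left) and Dox_Untreated libraries (right), with the vertical axis starting at 0. Points are libraries and lines join equal replicate numbers. All lines of Fanci, Bard1, Rad51c, Xrcc2, Fancd2 and Chek1 are higher on the treated side, and all lines of Rad54l2, Atm, Palb2 and Brip1 are lower there.

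The Fanconi ID complex was the part of the pathway whose members both rose. FANCI and FANCD2 form the clamp that receives ubiquitin at a crosslink. Fanci (ENSMUSG00000039187.16, chromosome 7 from 79391929 to 79450264, plus strand, GRCm38, protein coding) stood at 38.1, 40.7 and 40.9 CPM in treated libraries 1, 2 and 3, against 26.6, 30.6 and 30.7 CPM in untreated libraries 1, 2 and 3. The lowest treated library was above the highest untreated one. Its log2 fold change with the block was 0.45 (SE 0.095, adjusted p = 0.0067), and 0.45 without it (SE 0.14, adjusted p = 0.173). Fancd2 (ENSMUSG00000034023.16, chromosome 6 from 113531682 to 113597017, plus strand) stood at 49.5, 58.8 and 73.1 CPM in treated libraries, against 36.5, 46.6 and 60.7 CPM in untreated libraries. The groups overlapped, with number 3 the highest and number 1 the lowest in both, and each treated library was above the untreated one of its number. The log2 fold change of Fancd2 was 0.35 (SE 0.091, block adjusted p = 0.0185). Fanci overlaps Polg and Fancd2 overlaps Fancd2os on the opposite strand, and TruSeq RNA v2 libraries are unstranded, so the split of reads with these partners is uncertain.

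None of the 9 genes of the core complex and its E2 passed, with or without the block, and their block fold changes ran from -0.19 for Fanca to 0.25 for Ube2t on the log2 scale. Ube2t, the E2 enzyme that charges the complex with ubiquitin, was at 34.0, 25.2 and 35.9 CPM in treated libraries, against 30.1, 21.7 and 27.9 CPM in untreated libraries (log2 fold change 0.25, SE 0.10, block adjusted p = 0.0912). It was higher in the treated library of each pair, but the groups overlapped. Fancb, an X-linked scaffold subunit and the most abundant of the 9 in CPM, was at 58.1, 43.9 and 25.1 CPM in treated libraries, against 45.8, 40.6 and 25.7 CPM in untreated libraries. Number 1 was high and number 3 low in both groups, and the groups overlapped. Fancl, the ubiquitin ligase subunit, and Fance and Fancf, adaptor subunits, had block fold changes of 0.24, 0.21 and 0.24, and Fancc, Fancg and Fancm of 0.08, -0.01 and 0.11 on the log2 scale (adjusted p from 0.159 to 0.938 for these 6).

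**Figure D2:**
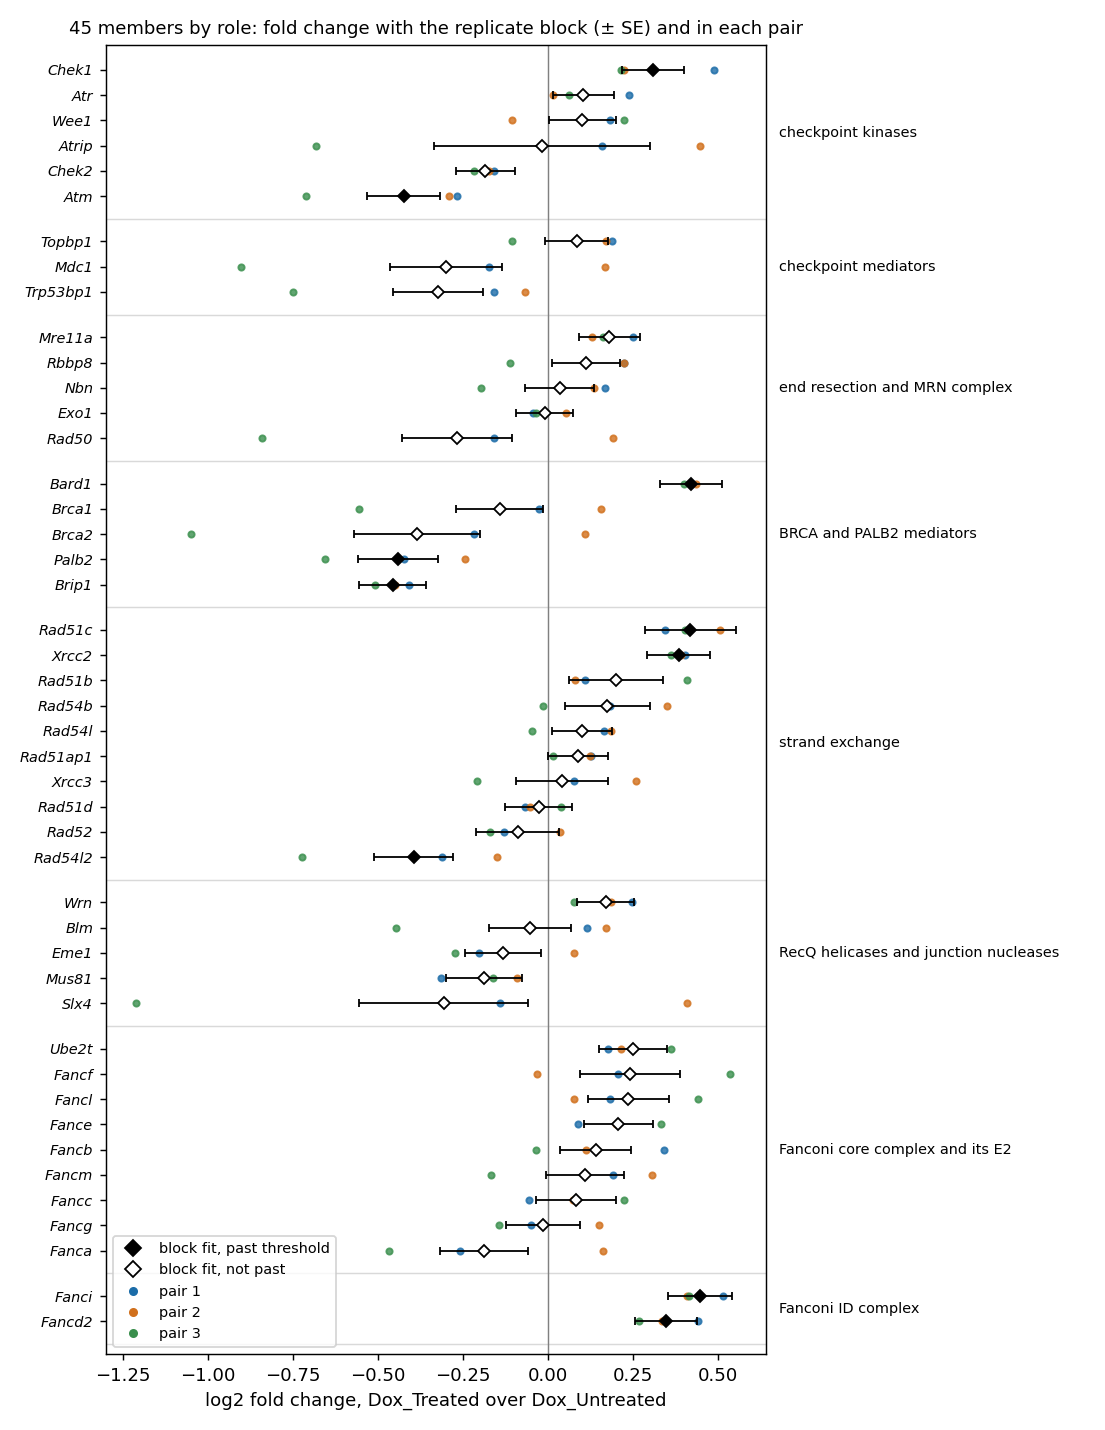
Log2 fold change of 45 of the 46 genes, Dox_Treated over Dox_Untreated, grouped by role. Diamonds are the fit with the replicate block with its SE, filled where the adjusted p is under 0.05, and coloured points are the ratios within pairs 1, 2 and 3. The 6 filled diamonds on the right lie between 0.31 and 0.45, the 4 on the left between -0.46 and -0.39, and the points of pair 3 reach -1.21 for Slx4.

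The BRCA and PALB2 group split. Bard1, the partner that BRCA1 needs as a ubiquitin ligase, rose, and Palb2 and Brip1 fell. Bard1 (ENSMUSG00000026196.7, chromosome 1 from 71027498 to 71103146, minus strand) was at 42.9, 48.2 and 46.8 CPM in treated libraries, against 32.0, 35.5 and 35.4 CPM in untreated libraries. The groups did not overlap, and the log2 ratio was 0.42, 0.44 and 0.40 in pairs 1, 2 and 3 (block log2 fold change 0.42, SE 0.092, adjusted p = 0.0076). Brip1 (ENSMUSG00000034329.16, chromosome 11 from 86058138 to 86201193, minus strand), the FANCJ helicase that binds BRCA1, was at 18.5, 21.7 and 24.4 CPM in treated libraries, against 24.5, 29.7 and 34.7 CPM in untreated libraries. Every treated library was below every untreated one, by a margin of under 1 CPM between treated 3 and untreated 1 (block log2 fold change -0.46, SE 0.099, adjusted p = 0.0076). Palb2 (ENSMUSG00000044702.13, chromosome 7 from 122107262 to 122132985, minus strand), which joins BRCA1 to BRCA2, was at 12.6, 18.3 and 15.1 CPM in treated libraries, against 17.0, 21.6 and 23.8 CPM in untreated libraries. The groups overlapped, and each treated library was lower than its untreated partner (block log2 fold change -0.44, SE 0.12, adjusted p = 0.0204).

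Brca1 and Brca2 themselves did not pass. Brca2, the partner of PALB2 in strand exchange, was at 9.15, 52.1 and 15.7 CPM in treated libraries, against 10.6, 48.3 and 32.6 CPM in untreated libraries. The spread between numbers was far wider than that between groups: the mean of number 2 was 5.07 times that of number 1. Its block log2 fold change was -0.39 (SE 0.19, adjusted p = 0.158), with -0.22, 0.11 and -1.05 in pairs 1, 2 and 3. Brca1 was at 44.8, 91.5 and 49.4 CPM in treated libraries, against 45.6, 82.1 and 72.6 CPM in untreated libraries. Here too number 2 was the highest of each group, and the pairs differed in sign (block log2 fold change -0.14, SE 0.13, adjusted p = 0.454).

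Among the 11 genes placed under strand exchange 3 rose, Xrcc2 and Rad51c among them, and 1 fell, Rad54l2, placed there by its name alone. Xrcc2 (ENSMUSG00000028933.11, chromosome 5 from 25689812 to 25705825, minus strand), a paralog subunit that works with RAD51D, was at 43.0, 38.0 and 40.2 CPM in treated libraries, against 32.5, 29.0 and 31.2 CPM in untreated libraries. It kept the groups apart with little spread inside each (block log2 fold change 0.39, SE 0.093, adjusted p = 0.0132). Rad51c (ENSMUSG00000007646.13, chromosome 11 from 87376645 to 87404954, minus strand), the paralog shared by both paralog complexes, was at 6.0, 5.48 and 6.32 CPM in treated libraries, against 4.72, 3.85 and 4.77 CPM in untreated libraries. The groups did not overlap at this low level (block log2 fold change 0.42, SE 0.13, adjusted p = 0.0435, and 0.196 without number 2).

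The other paralogs that XRCC2 and RAD51C work with did not pass: Rad51b, Rad51d and Xrcc3 had block fold changes of 0.20, -0.03 and 0.04 on the log2 scale. Rad54l, a motor protein of strand exchange and the most abundant gene of this role in CPM, was at 131, 142 and 110.4 CPM in treated libraries, against 117, 125 and 114 CPM in untreated libraries (block log2 fold change 0.10, SE 0.088, adjusted p = 0.432). The groups overlapped and pair 3 went the other way. Rad54b, Rad51ap1 and Rad52 had block fold changes of 0.18, 0.09 and -0.09 on the log2 scale. Rad54l2 (ENSMUSG00000040661.6, chromosome 9 from 106688082 to 106789194, minus strand) matched the rule by its name and encodes ARIP4, a remodelling ATPase known as a cofactor of the androgen receptor. It was at 35.4, 73.2 and 38.4 CPM in treated libraries, against 44.0, 81.3 and 63.5 CPM in untreated libraries (block log2 fold change -0.39, SE 0.12, adjusted p = 0.0321). The groups overlapped widely, since number 2 was high in both. The call was lost without number 3 (log2 fold change -0.23, adjusted p = 0.0760) and with offsets for transcript length and GC content (-0.16, adjusted p = 0.142).

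Among the kinases that raise the alarm, Atm fell and Chek1 rose. Atm (ENSMUSG00000034218.16, chromosome 9 from 53439149 to 53536740, minus strand) was at 45.3, 91.7 and 52.3 CPM in treated libraries, against 54.5, 112 and 85.7 CPM in untreated libraries. Each treated library was lower than its partner, most of all in pair 3 (log2 ratios -0.27, -0.29 and -0.71), and the groups overlapped. The block log2 fold change was -0.42 (SE 0.11, adjusted p = 0.0160). With the length and GC offsets it was -0.25 (adjusted p = 0.0241), and without number 3 -0.28 (adjusted p = 0.0214). Chek1 (ENSMUSG00000032113.16, chromosome 9 from 36708482 to 36727065, minus strand), the effector kinase of ATR, was at 131, 108 and 130.1 CPM in treated libraries, against 93.3, 92.1 and 112 CPM in untreated libraries. Treated was higher in each pair, and treated 2 lay below untreated 3 (block log2 fold change 0.31, SE 0.091, adjusted p = 0.0320).

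Their counterparts did not pass. Atr was at 58.5, 82.9 and 83.9 CPM in treated libraries, against 49.6, 82.1 and 80.4 CPM in untreated libraries (block log2 fold change 0.10, SE 0.090, adjusted p = 0.429). Number 1 was the low one in both groups. Chek2, the effector of ATM, was lower in each treated library than in its partner (log2 ratios -0.16, -0.17 and -0.22) with a block adjusted p of 0.146. Wee1, the kinase that holds CDK1 inactive, was at 61.1, 57.9 and 62.5 CPM in treated libraries, against 53.8, 62.3 and 53.5 CPM in untreated libraries, and its pairs differed in sign. Atrip, the obligate partner of ATR, had only 18 to 38 deposited counts per library. It lies on the same strand as the overlapping Trex1, and how reads shared by them were counted is not given in the sources used here.

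No gene of end resection, no helicase or nuclease and no mediator passed with the block. Topbp1, which activates ATR, was the most abundant member in CPM, at 294, 373 and 262 CPM in treated libraries, against 258, 331 and 281 CPM in untreated libraries (block log2 fold change 0.09, SE 0.093, adjusted p = 0.537). Per kilobase of transcript it also led, with a mean level over all libraries of 57.3 CPM per kb, ahead of Rad54l at 40.7, Chek2 at 30.7 and Chek1 at 29.2 CPM per kb, while Slx4 at 1.86, Rad51c at 1.32 and Atrip at 0.103 CPM per kb closed the order. Exo1, the exonuclease of long resection and the most abundant of its role in CPM, was at 93.6, 119.8 and 96.1 CPM in treated libraries, against 96.5, 115 and 98.5 CPM in untreated libraries (block log2 fold change -0.01, SE 0.084). The treated and untreated values lay side by side in every pair. Wrn, the Werner helicase and the most abundant of its role in CPM, was at 128, 151 and 149 CPM in treated libraries, against 108, 132 and 141 CPM in untreated libraries (block log2 fold change 0.17, SE 0.085, adjusted p = 0.170). It was higher in each pair. The other genes of these 3 roles had block fold changes from -0.32 for Trp53bp1, which steers breaks to end joining, to 0.18 for Mre11a, the nuclease of the complex with RAD50, on the log2 scale.

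Many members differed between replicate numbers. Tested in the block fit, 26 of 46 members differed between numbers (56.5%), against 43.3% of all genes. The highest number exceeded the lowest by more than 2-fold in mean CPM for 7 members (15.2%), against 16.9% of all genes, and the median of this ratio was 1.37 for members and 1.41 for all genes. The 7 were Brca2 (5.07-fold), Slx4 (3.05-fold), Mdc1 (2.63-fold), Rad50 (2.5-fold), Atm (2.05-fold), Fancb and Trp53bp1 (both 2.04-fold). Rad50, the arm of the break sensor, was at 41.9, 118 and 54.8 CPM in treated libraries, against 46.8, 103 and 98.2 CPM in untreated libraries. Mdc1, which binds marked chromatin at breaks, was at 49.0, 145 and 39.6 CPM in treated libraries, against 55.2, 129 and 74.0 CPM in untreated libraries. Slx4, the scaffold of junction nucleases, was at 5.24, 19.2 and 5.72 CPM in treated libraries, against 5.79, 14.5 and 13.3 CPM in untreated libraries. In these 3 genes number 2 was the highest of both groups, number 1 was the lowest of the untreated group, and treated 3 was far below untreated 3.

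**Figure D3:**
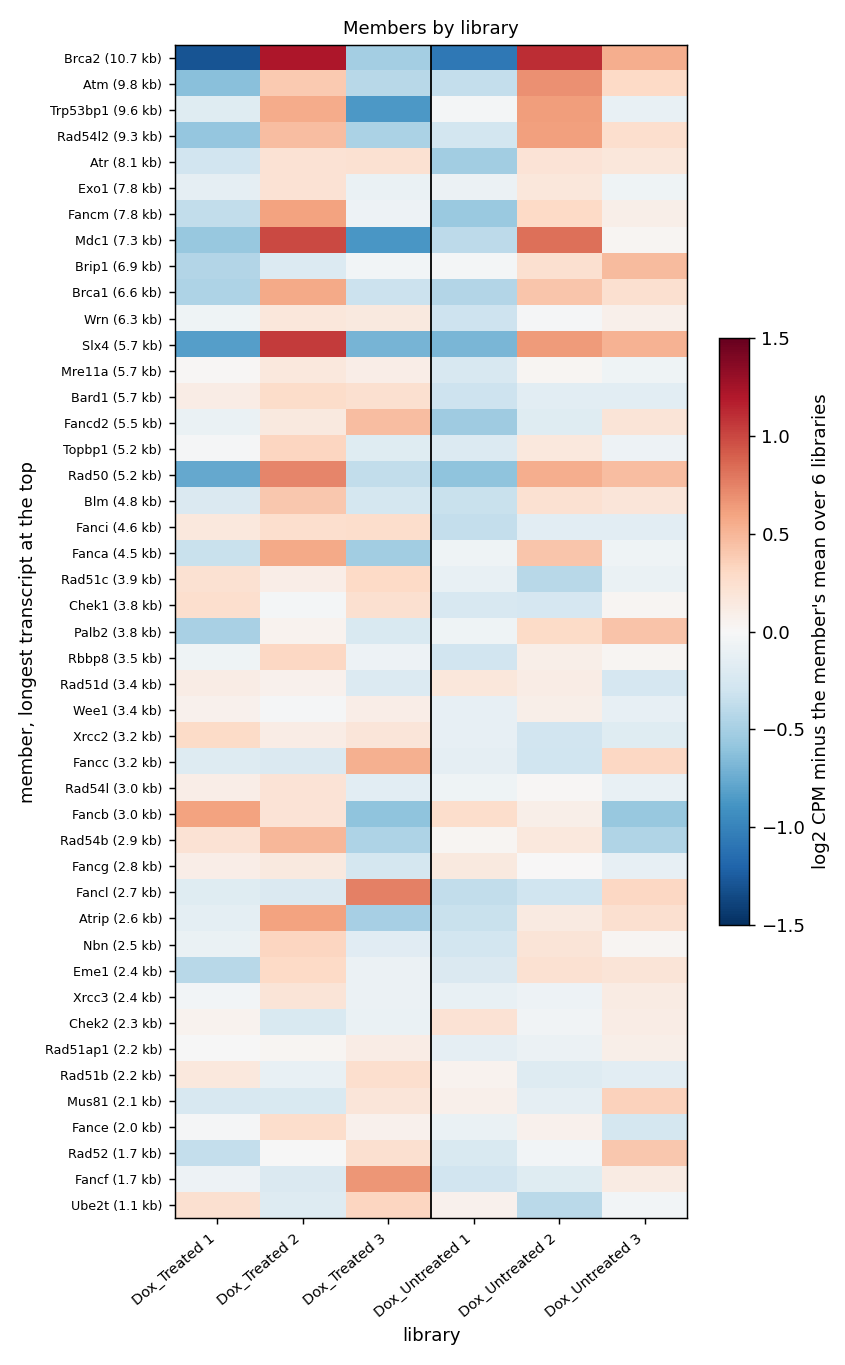
Log2 CPM of 45 members, each minus its mean over the 6 libraries, with Dox_Treated libraries left of the line and Dox_Untreated libraries right of it, and members ordered by transcript length. Brca2, Mdc1, Slx4 and Rad50 are red in number 2 and blue in number 1 in both groups.

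Some of these differences went with transcript length. Across the 46 members the log2 ratio of number 2 to number 1 had a Spearman correlation with length of 0.58 in treated and 0.68 in untreated libraries, and across 14004 genes tested of 0.46 and 0.51. For number 3 over number 1 it was 0.11 in treated and 0.41 in untreated libraries across the members, and 0.017 and 0.20 across all genes, so in treated libraries that ratio hardly went with length. For number 2 over number 3 it was 0.48 in treated and 0.46 in untreated libraries across the members, and 0.36 and 0.24 across all genes. The points of each correlation share their libraries and it is given as a description. The treated to untreated log2 ratio of pair 3 had a correlation with length of -0.40 across the members and -0.28 across all genes, against -0.08 and -0.13 in pair 1 and -0.04 and -0.08 in pair 2. For the 8 members with a transcript of at least 7000 bases the median log2 ratio was -0.16, 0.03 and -0.72 in pairs 1, 2 and 3, and for the 38 shorter ones 0.16, 0.17 and -0.02. The split at 7000 bases was chosen after the values were seen. With offsets for length and GC content in the block fit 11 members rose and 3 fell, 23.9% and 6.52% of members against 15.8% and 14.3% of all genes. Of the 11 genes called with the block, 10 were called there in the same direction, and Fance, Fancm, Mre11a and Wrn were added among the risers, with fold changes of 0.25, 0.26, 0.29 and 0.27 on the log2 scale. The part of length in the calls was not tested beyond these offsets.

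**Figure D4:**
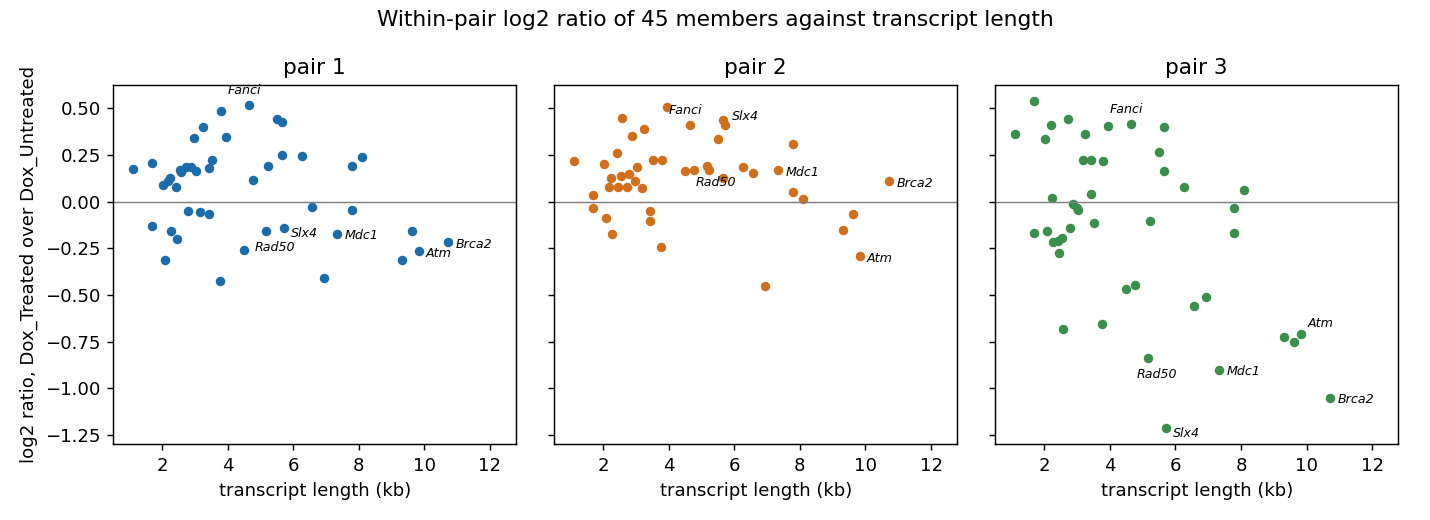
Log2 ratio of Dox_Treated over Dox_Untreated CPM within pairs 1, 2 and 3 against the length of the longest coding transcript in kb, for 45 of the 46 members. In pair 3 Brca2, Mdc1, Atm, Rad50 and Slx4 lie between -1.21 and -0.71, while Fanci lies between 0.41 and 0.52 in all 3 pairs.

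Other genes of the same pathways came from lists drawn up by function, and their shares with the block stand against 25.8% of all genes. Of 18 other Fanconi and crosslink repair genes none passed without the block, and with it 2 rose and 1 fell (16.7%). Usp1, which takes ubiquitin off FANCD2, fell (202 ± 2.58 CPM treated and 284 ± 20.7 CPM untreated, SD, n = 3 each, block log2 fold change -0.48, SE 0.086, adjusted p = 0.0025). Dclre1b, the nuclease Apollo, rose (70.0 ± 4.59 CPM treated and 51.0 ± 0.421 CPM untreated, log2 fold change 0.46, SE 0.090, adjusted p = 0.0043). Of 34 other recombination genes tested 1 fell without the block, and 4 rose and 3 fell with it (20.6%). The first was Hltf, a translocase that reverses stalled forks (35.2 ± 3.40 CPM treated and 64.1 ± 5.86 CPM untreated, log2 fold change -0.86, SE 0.15, adjusted p = 0.0304). Radx, a factor that acts at stalled forks, fell with the block (-0.67, SE 0.11, adjusted p = 0.0017).

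In the remaining lists few genes passed, all of them with the block. The shares called were 8.33%, 10%, 11.8% and 7.69% of the lists in the order below, against 25.8% of all genes. Of 12 other replication checkpoint genes 1 fell, Rfc2, a clamp loader subunit shared by replication and the checkpoint (147 ± 20.5 CPM treated and 222 ± 30.5 CPM untreated, log2 fold change -0.60, SE 0.090, adjusted p = 9.4e-04). Of 20 genes of break signalling and chromatin 1 rose, Abraxas1 of the BRCA1-A complex (0.40, SE 0.11, adjusted p = 0.0211), and 1 fell, the ubiquitin ligase Herc2 (-0.33, SE 0.10, adjusted p = 0.0362). Herc2 has a transcript of 15261 bases, and its highest replicate number was 3.17 times the lowest in mean CPM. Of 17 end joining genes 2 fell, Xrcc5, which encodes KU80 (-0.33, SE 0.089, adjusted p = 0.0213), and the polymerase Poll (-0.38, SE 0.11, adjusted p = 0.0345). Of 13 genes of the CDK1 switch that WEE1 and CHEK1 act on 1 rose, the phosphatase Cdc25b (0.41, SE 0.091, adjusted p = 0.0083).

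Lists of cycle phase markers were read beside the members, and none of their genes passed without the block. Summed over 18 S phase genes, levels were 5603, 5130 and 5808 CPM in treated libraries, against 4929, 4679 and 4943 CPM in untreated libraries, without overlap. With the block 7 of the 18 rose and 1 fell (44.4% called), against 10.3% of all genes higher and 15.6% lower. The risers were led by Ccne1, cyclin E1 (101.2 ± 33.4 CPM treated and 59.7 ± 16.6 CPM untreated, SD, n = 3 each, log2 fold change 0.75, SE 0.089, adjusted p = 2.2e-04), and Dtl, which marks replication proteins for breakdown (0.54, SE 0.085, adjusted p = 0.0012). The 1 that fell was Ccne2, cyclin E2 (82.0 ± 16.2 CPM treated and 101.8 ± 16.0 CPM untreated, log2 fold change -0.32, SE 0.094, adjusted p = 0.0313). Summed over 18 G2 and M genes, levels were 3874, 5575 and 3238 CPM in treated libraries, against 3979, 5629 and 4469 CPM in untreated libraries, with overlap. Of these none rose and 4 fell with the block (22.2%), near the 25.8% of all genes called, with a median log2 fold change of -0.078, led by Cenpf, a long transcript of the kinetochore (-1.04, SE 0.24, adjusted p = 0.0111), and Tpx2, a spindle factor (-0.42, SE 0.10, adjusted p = 0.0118). The highest replicate number of Cenpf was 6.28 times the lowest in mean CPM. Its log2 ratios were -0.89, -0.29 and -1.96 in pairs 1, 2 and 3, and the groups overlapped. The part of the cycle in the members' changes was not tested.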

How the data were processed

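Poly(A) RNA of 6 cultures was sequenced from TruSeq RNA v2 libraries, per the labels' protocols. The authors deposited raw read counts per gene symbol, and bcl2fastq 2.17.1.14, STAR, DESeq2, mm10 and GRCm38 are listed in the submitters' processing notes without their roles. Which counter, annotation and strand setting made them is not given in the sources used here. The smallest deposited count was 1, at a mean of 6549 genes per library, so 1 may have been added to each.

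The main test was edgeR 4.0.16 (R 4.3.3), quasi-likelihood F test, two-sided, TMM factors, filterByExpr, Benjamini-Hochberg adjusted p under 0.05 over 14158 genes. SE is the fold change's size divided by the square root of F. CPM use TMM-scaled totals. Within-pair log2 ratios add a prior count of 2.

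Replicate numbers were taken as pairs because same-numbered libraries deviated together from their group means (r = 0.77, 0.74 and 0.72 for numbers 1, 2 and 3). The biological coefficient of variation common to all genes was 11.3% with the block (2 residual degrees of freedom) and 28.6% without it (4 residual degrees of freedom). The test between numbers in that fit was added after the data were examined.

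Positions and the longest coding transcript's length and GC content come from GENCODE M21 (GRCm38). Length and GC offsets are smooth fits (mgcv 1.9.3). The edgeR fits with and without the block were tested on simulated data that held no effect of length. The fits with offsets and with DESeq2 were not. DESeq2 1.42.0 was an alternative. Members, gene lists and motifs were chosen with earlier results of these data known. Counts cover all members, and the values of 1 member are not reported here. Library values were given for members called in either fit, the most abundant of each role and some well-known ones, other members being added after their values were seen. Up to 2 genes per other list with the smallest adjusted p were named, and Ccne2 was added as the S phase gene that fell. Of the list genes, 9 symbols were not used here.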

Additional observations from a re-analysis of the deposited data

How the results depend on the processing

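Without the replicate block no member passed under RLE or upper-quartile factors, without a filter, with at least 1 CPM in 3 libraries, with 1 taken off each count, with length and GC offsets, or without any 1 library, and DESeq2 called 1 (higher). With the replicate block 7 members rose and 4 fell, as they did in the blocked DESeq2 fit and in the blocked fit with 1 taken off, where all 11 kept their call and direction. Length and GC offsets with the block gave 11 higher and 3 lower. With the block, leaving out pair 1, 2 or 3 gave 0, 5 or 7 higher and 0, 9 or 3 lower. The median log2 fold change of members was 0.09, and -0.053 (without Dox_Treated replicate 2) to 0.14 when 1 library was left out without the block, or 0.031 to 0.13 when a pair was left out with it. Of 919 member values under 20 alternatives, 72 passed the threshold, all in the direction of the fit without the block, and 86 values of 25 members, none called, had the other sign.

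Over all genes, 59 were higher and 308 lower. The counts were 1452 and 2206 with the replicate block, 291 and 722 in DESeq2, 1436 and 1966 in its blocked fit, 1400 and 2162 with 1 taken off and the block, 2236 and 2029 with length and GC offsets and the block, and 125 and 406 with the offsets alone. Leaving out 1 library gave 0 to 26 higher and 35 to 242 lower. With the block, leaving out pair 1, 2 or 3 gave 368, 1310 or 2071 higher and 880, 2119 or 2677 lower. The causes were not tested. Of the members, 45 had at least 1 CPM in every library, and the exception, Atrip, had 18 to 38 counts.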
